A study of Mus musculus with 36 samples.

Results

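Renal handling of phosphate, vitamin D and calcium was examined through 10 genes in kidneys of mice on 5 diets: the phosphate transporter genes Slc34a1, Slc34a3, Slc20a1 and Slc20a2, the vitamin D enzyme genes Cyp24a1 and Cyp27b1, the vitamin D receptor gene Vdr, the Klotho gene Kl, and the calcium handling genes Calb1 and Trpv5. They were picked by name for their roles, with earlier results of these data known, and no threshold on their values was used. A probe set annotated with 1 symbol was found for 8 of the 10 genes, on 16 of the 45141 probe sets of the array. Slc34a1 and Trpv5 were not analysed here. Each gene was followed by its brightest probe set, and its other probe sets were compared with it.

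The 36 arrays each held total RNA of 1 kidney of a male C57BL/6 mouse, aged 10 to 12 weeks on arrival, kept in cages of several animals on acidified water and given SDS chow for 7 days before any change of diet. One cohort held 4 mice fasted for 3 days and 5 mice with free access to SDS chow. The other cohort held 5 mice on 30% dietary restriction (30%DR) of the same chow for 2 weeks with 3 SDS mice as their control, and 5 mice on a purified Control diet with 5 protein-free, 4 fat-free and 5 carbohydrate-free (CHO-free) mice, all 4 diets given freely and the last 3 for 3 days. By the study's account, protein took the place of carbohydrate in the CHO-free diet, and carbohydrate that of protein in the protein-free diet. In each, the lack of a nutrient and the added amount of its substitute cannot be told apart. No gene was manipulated in any group. The cage of each mouse, its food intake and its serum phosphate, calcium and hormones were not analysed here. The median log2 signal per array was 4.15 to 4.21 in the fasting cohort and 3.62 to 3.76 in the other, and because the cohorts were normalized apart, levels were compared within a cohort only.

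The kidney sets how much phosphate and calcium the body keeps. In the proximal tubule, sodium-phosphate cotransporters of the type II family, encoded by Slc34a1 and Slc34a3, take filtered phosphate back, beside the type III cotransporters encoded by Slc20a1 and Slc20a2. The bone hormone FGF23 acts on tubules that carry Klotho as its co-receptor, lowers this uptake, represses Cyp27b1, which makes active vitamin D, and induces Cyp24a1, which breaks it down. In the distal tubule active vitamin D and parathyroid hormone favour calcium uptake through TRPV5 at the luminal side, calbindin-D28k (Calb1) as carrier in the cell, and the sodium-calcium exchanger (Slc8a1) and calcium pumps at the basolateral side.

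Slc34a3 fell and Slc20a1 rose both after fasting and after the CHO-free diet, and Kl fell after fasting. Their upstream sequences are shown because these 3 genes carry the changes below and RefSeq's table lists a start site for them. Promoters were taken from RefSeq, build GRCm38, which listed 8 start sites for 7 of the 10 genes. The 200 bases before the start are printed 5′ to 3′ in the direction of the gene, and capitals mark AGGTCA (the half-site of many nuclear receptors, the vitamin D receptor among them) and CACGTG (the E-box) on either strand. They lie at chr2:25234235-25234434 (minus strand), chr2:129198573-129198772 (plus strand, the upstream of its 2 listed starts) and chr5:150952407-150952606 (plus strand).
Slc34a3: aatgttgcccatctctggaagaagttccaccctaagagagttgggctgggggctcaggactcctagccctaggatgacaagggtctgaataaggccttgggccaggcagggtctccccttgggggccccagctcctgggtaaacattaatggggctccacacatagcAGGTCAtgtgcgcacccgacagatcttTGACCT
Slc20a1: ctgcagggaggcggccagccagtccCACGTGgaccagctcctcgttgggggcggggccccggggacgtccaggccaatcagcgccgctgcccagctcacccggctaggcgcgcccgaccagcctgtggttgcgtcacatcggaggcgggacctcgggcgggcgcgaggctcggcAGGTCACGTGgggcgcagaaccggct
Kl: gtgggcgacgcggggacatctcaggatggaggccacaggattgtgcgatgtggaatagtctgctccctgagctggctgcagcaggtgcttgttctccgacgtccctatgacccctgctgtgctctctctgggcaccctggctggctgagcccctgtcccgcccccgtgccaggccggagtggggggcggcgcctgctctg

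AGGTCA was present on either strand in 16.3% of the 32851 listed windows, each from 250 bases before to 50 bases after a start, and CACGTG in 7.15%. Slc34a3 held AGGTCA at positions -33 to -28 on its own strand and at -6 to -1 on the opposite strand, counted from the start site. The Slc20a1 start shown held CACGTG at -175 to -170 and at -22 to -17, the latter overlapping an AGGTCA at -26 to -21 by 2 letters. The other Slc20a1 start held AGGTCA at -75 to -70, and neither motif was in the windows of Kl, Vdr, Cyp27b1, Slc34a1 or Trpv5. The DR3 element, the consensus for the vitamin D receptor with its partner RXR, was in 0.256% of all windows and in none of the 8 of these genes. These matches describe letters only.

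A probe set was called when its adjusted p was under 0.05 over all probe sets of the comparison and its fold change was at least 1.5, and a gene was counted by its brightest probe set. After 3-day fasting 4 of the 8 genes were called, 3 lower (Slc34a3, Kl and Calb1) and 1 higher (Slc20a1), where 5.31% of all probe sets were called, 2.68% lower and 2.63% higher. After the CHO-free diet 2 genes were called, Slc34a3 lower and Slc20a1 higher, where 3.60% of all probe sets were called, 2.25% lower and 1.35% higher. After the protein-free diet 1 gene was called, Cyp24a1, higher, where 0.738% of all probe sets were called and 0.450% were called higher. After 30%DR none of the 8 was called, where 0.919% of all probe sets were. The fat-free diet gave no call among the 8 genes or on the whole array by limma, with 2 of the 8 genes and 4.63% of all probe sets at an unadjusted p under 0.05. Between the Control diet and SDS chow none of the 8 genes was called or reached an unadjusted p under 0.05, where 0.0465% of all probe sets were called and 6.34% reached that p. Counted over probe sets, fasting gave 1 higher and 6 lower of the 16, the protein-free diet 2 higher, and the CHO-free diet 1 higher and 1 lower. The median log2 fold change of the 8 genes was 0.18 after fasting, -0.07 after 30%DR, -0.04 after the protein-free, -0.05 after the fat-free and -0.44 after the CHO-free diet, while that of all probe sets lay between 0.00 and 0.03.

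**Figure D1:**
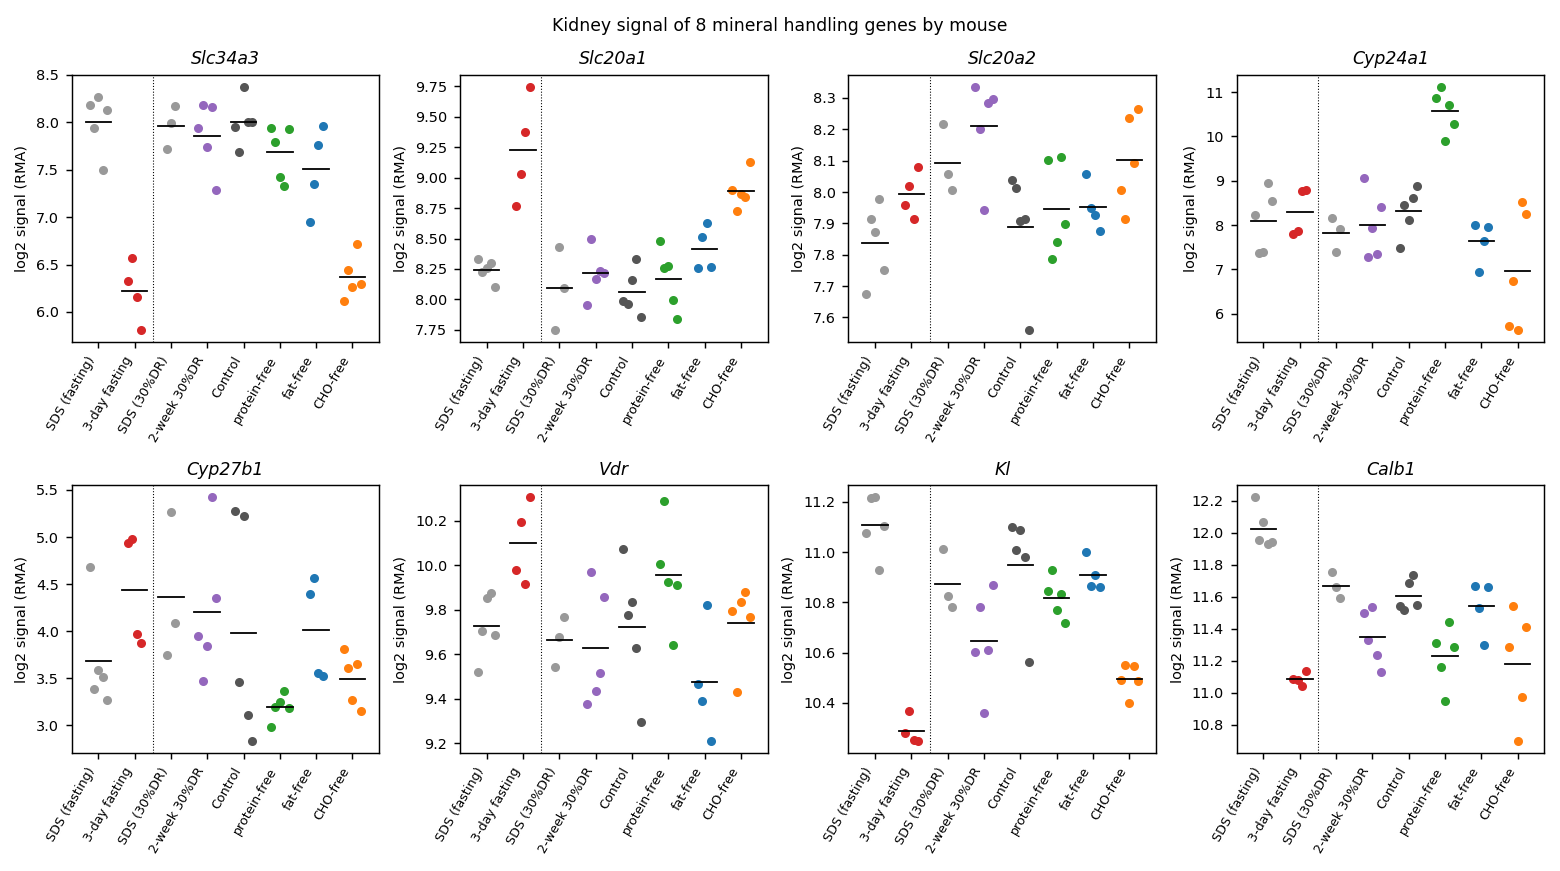
Log2 signal (RMA) of the brightest probe set of each of 8 genes, with 1 point per mouse and a bar at the group mean; the dotted line parts the fasting cohort from the other, and each panel has its own scale, which does not start at 0. Slc34a3 was lowest in the fasted and CHO-free mice, and the 5 protein-free mice lay between 9.88 and 11.12 for Cyp24a1, above all other mice.

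**Figure D2:**
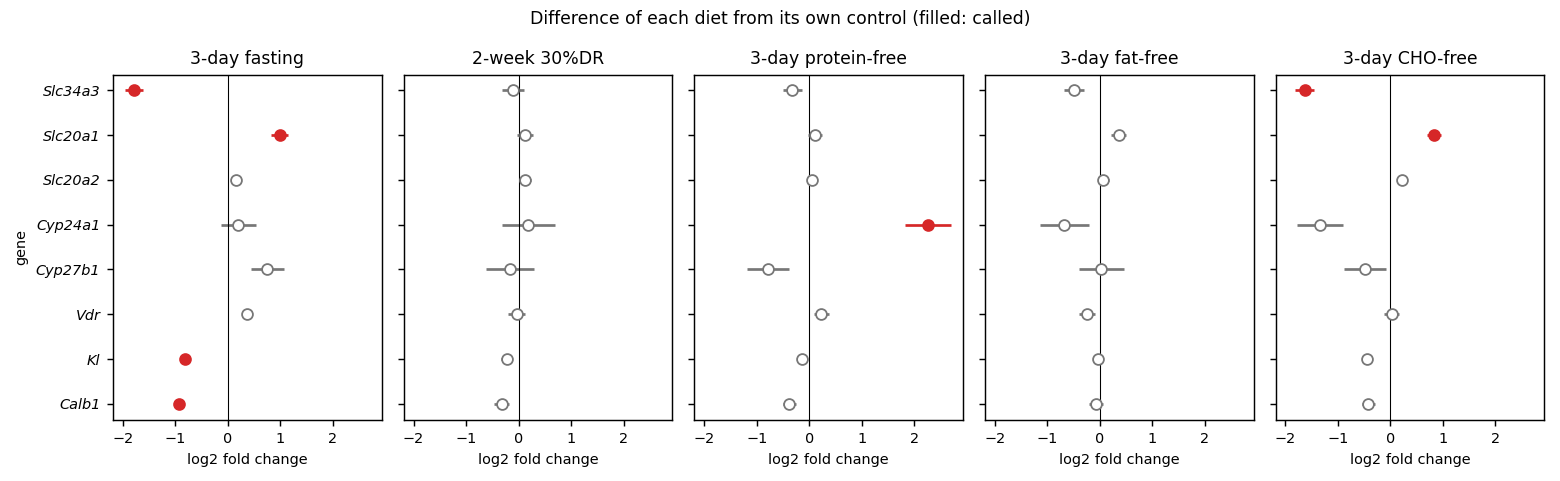
Log2 fold change of each diet from its own control for the 8 genes, with error bars of 1 standard error and filled points for calls. The filled points were Slc34a3, Slc20a1, Kl and Calb1 after fasting, Cyp24a1 after the protein-free diet, and Slc34a3 and Slc20a1 after the CHO-free diet.

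Among the type II transporters, Slc34a3 (NaPi-IIc) fell after fasting and after the CHO-free diet. In the fasting cohort its log2 signal was 8.18, 7.94, 8.27, 7.49 and 8.13 in the 5 SDS mice and 6.33, 6.57, 6.16 and 5.81 in the 4 fasted mice. The groups did not overlap, which held for 17.2% of all probe sets in this comparison. The means were 8.0 ± 0.31 (SD, n = 5) in SDS and 6.22 ± 0.32 (SD, n = 4) in fasted mice, which gave a change of -1.78 on the log2 scale (SE 0.17, adjusted p = 3.5e-05), or 3.44-fold lower. In bulk kidney RNA, fewer cells of a type and less RNA per cell cannot be told apart. The mean log2 signal of 9 proximal tubule markers was 10.90 ± 0.07 (SD, n = 5) in the SDS mice and 10.94 ± 0.08 (SD, n = 4) in the fasted mice. It ranged from 10.82 to 10.98 and from 10.86 to 11.04, with 1 of the 9 markers called higher (Slc13a3) and 1 lower (Slc5a2).

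In the other cohort Slc34a3 was at 7.95, 7.68, 8.37, 8.01 and 8.0 in the Control mice and at 6.12, 6.44, 6.27, 6.72 and 6.30 in the CHO-free mice. Every CHO-free mouse lay below every Control mouse, as was the case in one direction or the other for 5.39% of all probe sets. The means were 8.0 ± 0.25 (SD, n = 5) in Control and 6.37 ± 0.23 (SD, n = 5) in CHO-free mice, which gave a change of -1.63 on the log2 scale (SE 0.18, adjusted p = 1.91e-06), or 3.10-fold lower. The proximal tubule marker mean was 10.79 ± 0.19 (SD, n = 5) in the Control mice and 10.78 ± 0.08 (SD, n = 5) in the CHO-free mice, with 1 of 9 markers called, Slc13a3, higher. The difference between the 3′ and 5′ control probe sets of Gapdh, a measure of RNA degradation, was 0.82 ± 0.14 (SD, n = 5) in Control and 1.85 ± 0.62 (SD, n = 5) in CHO-free mice on the log2 scale (exact permutation test, two-sided p = 0.00794, adjusted p = 0.0476 over 6 comparisons). With that difference as a covariate, Slc34a3 was at a log2 fold change of -1.58 (adjusted p = 0.000204).

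Slc34a3 was at 7.94, 7.79, 7.42, 7.33 and 7.93 in the protein-free mice, -0.32 from Control (95% confidence interval -0.69 to 0.05). It was at 6.95, 7.35, 7.76 and 7.96 in the fat-free mice, -0.50 from Control (interval -0.89 to -0.10, unadjusted p = 0.0159, adjusted p = 0.998 by limma). Of these mice, 2 lay below every Control mouse and 2 within the Control range. The 30%DR mice were at 7.94, 8.18, 7.73, 8.16 and 7.29 against 7.71, 7.99 and 8.17 in their SDS controls, a difference of -0.10 (interval -0.53 to 0.33). In the order of the 6 groups of this cohort, Control (8.0), SDS (7.96), 30%DR (7.86), protein-free (7.68), fat-free (7.51) and CHO-free (6.37), the step from fat-free to CHO-free was the 1 step between neighbours that passed the test (1.14, SE 0.19, adjusted p = 0.00120).

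Whether 2 diets changed a gene unequally was tested in a fit of all arrays, with a threshold of adjusted p under 0.05 and no fold change minimum. Fasted mice and their controls formed a cohort of their own, normalized apart. In every contrast with fasting, a difference between diets and a difference between cohorts therefore cannot be told apart. The change of Slc34a3 after fasting differed from that after 30%DR by -1.68 (SE 0.29, adjusted p = 0.000429), where 2.63% of all probe sets differed, and from that after the protein-free diet by -1.46 (SE 0.27, adjusted p = 0.000755), where 3.00% differed. Between fasting and the CHO-free diet the contrast was -0.15 (interval -0.70 to 0.40, adjusted p = 0.857), where 3.94% of all probe sets differed. The 30%DR change minus the CHO-free change was 1.53 (SE 0.28, adjusted p = 0.00252), where 1.2% differed. The protein-free mice lay above the CHO-free mice by 1.31 (SE 0.18, adjusted p = 8.3e-06), where 9.83% differed.

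Among the type III transporters, Slc20a1 (PiT-1), also known as a housekeeping phosphate importer, rose after the same 2 diets. In the fasting cohort it was at 8.33, 8.23, 8.26, 8.30 and 8.11 in the SDS mice and at 8.76, 9.03, 9.38 and 9.75 in the fasted mice. The fasted mice all lay above the SDS mice, where 17.2% of all probe sets did not overlap, and were spread more widely than them. The means were 8.24 ± 0.09 (SD, n = 5) in SDS and 9.23 ± 0.43 (SD, n = 4) in fasted mice, which gave a change of 0.99 on the log2 scale (SE 0.16, adjusted p = 0.00117), or 1.98-fold higher.

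In the other cohort Slc20a1 was at 7.99, 7.96, 8.16, 8.33 and 7.86 in the Control mice and at 8.90, 8.73, 8.86, 8.84 and 9.13 in the CHO-free mice. These groups did not overlap either, as was the case for 5.39% of all probe sets. Their means were 8.06 ± 0.19 (SD, n = 5) and 8.89 ± 0.15 (SD, n = 5). The log2 fold change was 0.83 (SE 0.13, adjusted p = 0.000175), or 1.78-fold higher, and 0.73 (adjusted p = 0.0137) with Gapdh as that covariate. In the fat-free mice, at 8.26, 8.51, 8.63 and 8.26, it was 0.36 from Control (interval 0.07 to 0.64, unadjusted p = 0.0153, adjusted p = 0.998). After the protein-free diet it was 0.11 (interval -0.15 to 0.38) and after 30%DR 0.12 (interval -0.18 to 0.43). The step from the CHO-free to the next group, fat-free, was 0.48 (SE 0.14) and did not pass the test (adjusted p = 0.0557).

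The rise of Slc20a1 after fasting exceeded that after 30%DR by 0.86 (SE 0.22, adjusted p = 0.0237) and that after the protein-free diet by 0.87 (SE 0.21, adjusted p = 0.0106). The former contrast lost its call without fasted mouse K343 or K344 or without SDS mouse TS56 or TS58, with an adjusted p of up to 0.156. Both contrasts lost it with the mean of both probe sets and in a test against a fold change of 1.2, with an adjusted p of up to 0.338 and 0.213. Protein-free minus CHO-free mice came to -0.72 (SE 0.14, adjusted p = 0.00072), which did not pass in that stricter test (adjusted p = 0.0984). A second Slc20a1 probe set read between the 10.1th and the 17.6th percentile of all signals in every group and was at -0.05 after fasting and -0.01 after the CHO-free diet. The mean of both probe sets was at 0.47 after fasting (adjusted p = 0.00570) and 0.41 after the CHO-free diet (adjusted p = 0.000869), under the fold change minimum.

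**Figure D3:**
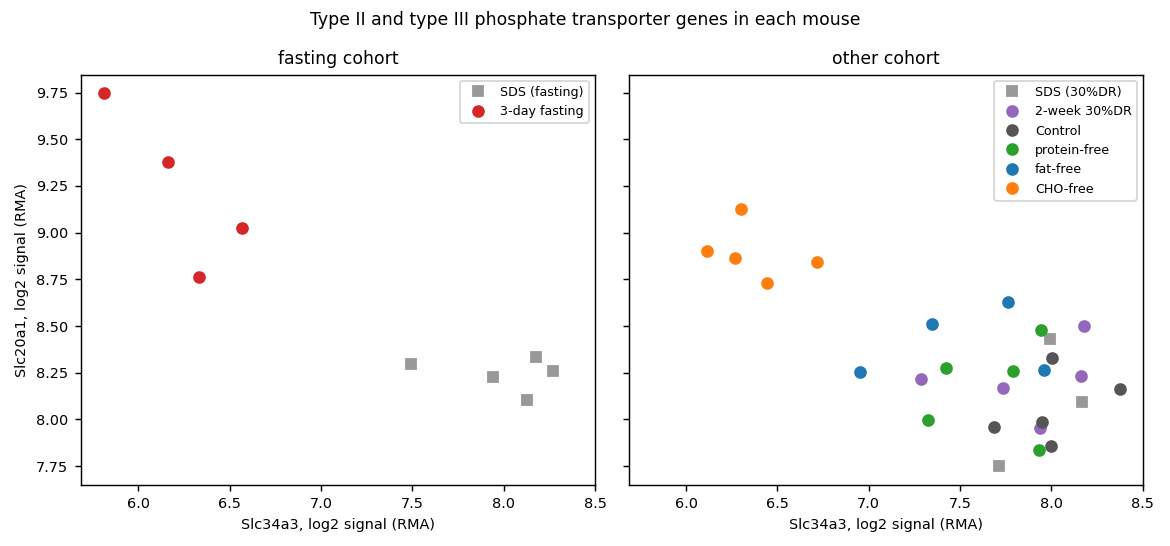
Log2 signal (RMA) of Slc20a1 against that of Slc34a3, 1 point per mouse, in the fasting cohort and in the other cohort; neither axis starts at 0. The 4 fasted and the 5 CHO-free mice lay at the upper left of their panels, with Slc34a3 between 5.81 and 6.72 and Slc20a1 between 8.73 and 9.75, apart from all other mice.

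Slc20a2 (PiT-2), the other type III transporter, was not called in any diet. Its log2 fold change was 0.15 after fasting, 0.12 after 30%DR, 0.06 after the protein-free diet, 0.07 after the fat-free diet and 0.22 after the CHO-free diet (interval 0.02 to 0.41, adjusted p = 0.159). Its second probe set, read at lower signal, was at -0.07 after fasting and -0.21 after the CHO-free diet. Of 9 phosphate transport partners, which include the phosphate exporter gene Xpr1 and the scaffold genes Pdzk1 and Slc9a3r1, none was called in any of the 5 diets.

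Cyp24a1, the hydroxylase that degrades active vitamin D, rose after the protein-free diet. It was at 7.49, 8.44, 8.12, 8.62 and 8.88 in the Control mice and at 10.86, 11.12, 9.88, 10.70 and 10.27 in the protein-free mice. Every protein-free mouse lay above the highest Control mouse, where 3.46% of all probe sets did not overlap between these groups. The means were 8.31 ± 0.54 (SD, n = 5) in Control and 10.57 ± 0.49 (SD, n = 5) in protein-free mice, which gave a change of 2.26 on the log2 scale (SE 0.44, adjusted p = 0.00522), or 4.79-fold higher, and it was 2.27 (adjusted p = 0.0116) with the Gapdh covariate. A second probe set, at lower signal, was at 3.68, 4.02, 4.17, 4.23 and 4.58 in Control and at 5.57, 6.31, 5.06, 5.25 and 5.65 in protein-free mice. It did not overlap between the groups either and rose by 1.43 (SE 0.21, adjusted p = 0.000246). Both red blood cell markers, Hba-a1 and Alas2, were called lower in the same comparison. Hba-a1 fell by 0.85 and Alas2 fell by 1.21, and their part in the result was not tested. The proximal tubule marker mean was 10.79 ± 0.19 (SD, n = 5) in Control and 10.94 ± 0.11 (SD, n = 5) in protein-free mice, with none of 9 markers called.

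After the CHO-free diet Cyp24a1 missed the threshold narrowly. The CHO-free mice were at 5.73, 6.73, 5.64, 8.52 and 8.24. Of them 3 lay below every Control mouse and 2 (TS35 and TS36) within the Control range. Their mean was 6.97 ± 1.36 (SD, n = 5), which lay -1.34 from Control on the log2 scale (SE 0.44, interval -2.24 to -0.43, adjusted p = 0.0507), and that of the second probe set was -0.42 (SE 0.21, adjusted p = 0.214). Without TS35, TS36 or Control mouse TS26 it was called, with an adjusted p down to 0.0142, and without other mice of the comparison the adjusted p reached 0.184. The Gapdh difference was 2.45 in TS34 and in TS35, the mice at the lowest and the highest Cyp24a1 signal of the group. With the Gapdh difference as a covariate, Cyp24a1 after the CHO-free diet was not called. The protein-free mice lay above the CHO-free mice by 3.60 (SE 0.43, adjusted p = 5.34e-07), and by 1.85 (SE 0.20, adjusted p = 5.84e-08) on the second probe set.

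In the other diets no Cyp24a1 change passed the test. It was at 8.23, 7.37, 7.40, 8.95 and 8.55 in the SDS mice and 7.80, 7.86, 8.76 and 8.78 in the fasted mice, a log2 fold change of 0.20 (interval -0.55 to 0.95). The change was 0.19 after 30%DR (interval -0.86 to 1.23) and -0.68 after the fat-free diet (interval -1.64 to 0.28). The contrast of the protein-free change with the fasting change was -2.06 (fasting minus protein-free, SE 0.63, adjusted p = 0.0701, under 0.05 in 5 of 10 alternative settings) on the brighter probe set and -1.29 (SE 0.29, adjusted p = 0.00640) on the second. That with the 30%DR change was -2.07 (30%DR minus protein-free, adjusted p = 0.356) and -1.47 (adjusted p = 0.0428), where 0.0665% of all probe sets differed.

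Cyp27b1, the 1-alpha-hydroxylase that makes active vitamin D, was read between the 38.7th and the 57.7th percentile of all signals and was not called in any diet. This was a low signal, with group means from 3.19 to 4.44 where the values of the series ran from 2 to 13.86. Its values in the Control mice were 5.28, 3.46, 5.22, 3.11 and 2.84, and in the protein-free mice 2.99, 3.19, 3.25, 3.36 and 3.18. The Control mice fell into 2 high and 3 low values while the protein-free mice lay between 2.99 and 3.36, and the difference was -0.79 (interval -1.60 to 0.03, adjusted p = 0.415). After fasting, at 4.94, 4.97, 3.97 and 3.88 against 4.69, 3.39, 3.59, 3.51 and 3.27, it was 0.75 (interval 0.07 to 1.43, adjusted p = 0.123). Without SDS mouse K346, the high value of that group, the change was 1.0 with an adjusted p of 0.0180. In the 30%DR, fat-free and CHO-free comparisons it was at -0.16, 0.03 and -0.48, each with an interval that held 0.

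Vdr, the nuclear receptor for active vitamin D, was higher after fasting by an amount that passed the false discovery rate but not the fold change minimum. It was at 9.52, 9.71, 9.85, 9.87 and 9.69 in the SDS mice and at 9.98, 10.20, 9.91 and 10.30 in the fasted mice. The groups did not overlap, as was the case for 17.2% of all probe sets. The log2 fold change was 0.37 (SE 0.10, adjusted p = 0.0194), where 19.6% of all probe sets passed the false discovery rate, and that of its second probe set 0.35 (SE 0.09, adjusted p = 0.0211). The brighter probe set no longer passed in 1 fit of all arrays (adjusted p = 0.0813) or without fasted mouse K340 or K344 (up to 0.0591). In the other diets it was between -0.25 after the fat-free and 0.23 after the protein-free diet, with intervals that held 0. Of 13 measured genes of vitamin D activation, uptake and receptor partners, 1 was called after fasting and none in the other diets. It was Cyp27a1, a mitochondrial hydroxylase of vitamin D and sterols (0.96, SE 0.12, adjusted p = 0.000166). Of all probe sets 5.31% were called after fasting.

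Kl, whose product Klotho is the co-receptor of FGF23, fell after fasting. It was at 11.07, 11.21, 11.22, 10.93 and 11.11 in the SDS mice and at 10.28, 10.37, 10.25 and 10.25 in the fasted mice. Both groups were narrow and lay apart. The means were 11.11 ± 0.12 (SD, n = 5) in SDS and 10.29 ± 0.06 (SD, n = 4) in fasted mice, which gave a change of -0.82 on the log2 scale (SE 0.07, adjusted p = 1.48e-05), or 1.77-fold lower. Its second probe set, at lower signal, was at -0.37 (SE 0.06, adjusted p = 0.00124), under the fold change minimum, again with no overlap. Of all probe sets 17.2% did not overlap in this comparison.

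In the other cohort Kl was at 11.10, 11.01, 11.09, 10.98 and 10.56 in the Control mice and at 10.49, 10.55, 10.40, 10.55 and 10.49 in the CHO-free mice. The groups did not overlap, as held for 5.39% of all probe sets, though the lowest Control mouse, TS30, lay only just above the highest CHO-free mouse. The log2 fold change of -0.45 (SE 0.09, adjusted p = 0.00259) passed the false discovery rate but not the fold change minimum. So did that of the second probe set (-0.47, adjusted p = 0.00566), which overlapped between the groups. In this comparison 10.4% of all probe sets passed that rate. Over the alternatives of the brighter probe set, mice left out apart, the adjusted p ranged from 0.000322 to 0.583. The Gapdh difference was higher in CHO-free mice, as given with Slc34a3. The 30%DR mice, at 10.60, 10.78, 10.36, 10.61 and 10.87 against 11.01, 10.83 and 10.78, were at -0.23 (interval -0.45 to -0.01, adjusted p = 0.381), overlapping their controls. After the protein-free diet Kl was at -0.13 (interval -0.32 to 0.06) and after the fat-free diet at -0.04 (interval -0.24 to 0.16).

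The fall of Kl after fasting differed from the change after 30%DR by -0.59 (SE 0.14, adjusted p = 0.00938) and from that after the protein-free diet by -0.69 (SE 0.13, adjusted p = 0.000729). Against the CHO-free diet the contrast was -0.37 (interval -0.62 to -0.11, adjusted p = 0.103). The protein-free mice lay above the CHO-free mice by 0.32 (SE 0.09, adjusted p = 0.0133), a call lost in 3 of 10 alternative settings. Both fasting contrasts lost theirs in the test against a fold change of 1.2 (adjusted p = 0.527 and 0.0955). In the order of the 6 groups, no step between neighbours passed the test for Kl or for Calb1. Of 18 genes of parathyroid hormone and FGF23 signalling, 2 were called after fasting, where 5.31% of all probe sets were, and none after the other diets. The kinase gene Fam20c, whose product phosphorylates FGF23, fell by 0.66 (SE 0.11, adjusted p = 0.00170), and the immediate early gene Egr1, a known readout of FGF23 signalling and of many other stimuli, rose by 1.90 (SE 0.53, adjusted p = 0.0254).

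Calb1, the calcium carrier of the distal tubule, fell after fasting. It was at 12.22, 11.96, 12.07, 11.93 and 11.94 in the SDS mice and at 11.08, 11.08, 11.04 and 11.14 in the fasted mice. The fasted mice lay close together, all below the SDS mice. The means were 12.02 ± 0.12 (SD, n = 5) in SDS and 11.09 ± 0.04 (SD, n = 4) in fasted mice, which gave a change of -0.94 on the log2 scale (SE 0.07, adjusted p = 5.92e-06), or 1.92-fold lower. Its other 3 probe sets, all with no overlap and all called, were at -1.40, -1.45 and -1.18. Of all probe sets 17.2% did not overlap in this comparison and 2.68% were called lower. The mean log2 signal of 3 distal convoluted tubule markers was 8.59 ± 0.14 (SD, n = 5) in the SDS mice, from 8.43 to 8.76, and 8.37 ± 0.04 (SD, n = 4) in the fasted mice, from 8.32 to 8.42. Of the 3 markers Pvalb was called lower, while Slc12a3, the thiazide-sensitive transporter gene, was at 0.09 and Trpm6 at 0.25. The mean of 7 markers of connecting tubule and principal cells was 7.60 ± 0.06 (SD, n = 5) in the SDS mice, from 7.53 to 7.69, and 7.39 ± 0.18 (SD, n = 4) in the fasted mice, from 7.20 to 7.57, with 1 of the 7 called lower (Avpr2). The part of these cells in the Calb1 result was not tested.

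After the CHO-free diet Calb1 was at 11.28, 11.54, 10.70, 10.97 and 11.41 against 11.54, 11.52, 11.68, 11.74 and 11.55 in the Control mice, with 1 CHO-free mouse within the Control range. The log2 fold change was -0.42 (SE 0.12, adjusted p = 0.0270), under the fold change minimum, and no longer passed without TS28, TS29, TS34 or TS35 (adjusted p up to 0.116). It was -0.26 (adjusted p = 0.548) when the Gapdh difference was a covariate. The other 3 probe sets were at -0.18, -0.31 and 0.25, so that they did not share a direction. After the protein-free diet, at 11.31, 11.16, 10.95, 11.44 and 11.29, all below Control, it was at -0.38 (interval -0.63 to -0.12, adjusted p = 0.134). Of all probe sets 3.46% did not overlap in that comparison. The 30%DR mice, at 11.50, 11.33, 11.54, 11.23 and 11.13, all lay below their SDS controls at 11.76, 11.66 and 11.59, with a change of -0.32 (interval -0.62 to -0.03, adjusted p = 0.333) where 8.42% of all probe sets did not overlap. After the fat-free diet it was at -0.07 (interval -0.34 to 0.20). On the brightest probe set the contrasts of fasting with 30%DR (-0.61, adjusted p = 0.0522), with the protein-free diet (-0.56, adjusted p = 0.0534) and with the CHO-free diet (-0.51, adjusted p = 0.0730) missed the threshold, whereas 1, 2 and 3 of the other 3 probe sets passed it. The same contrasts of Calb1 passed it under 8, 8 and 6 of 10 alternative settings, the mean of its probe sets among them.

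**Figure D4:**
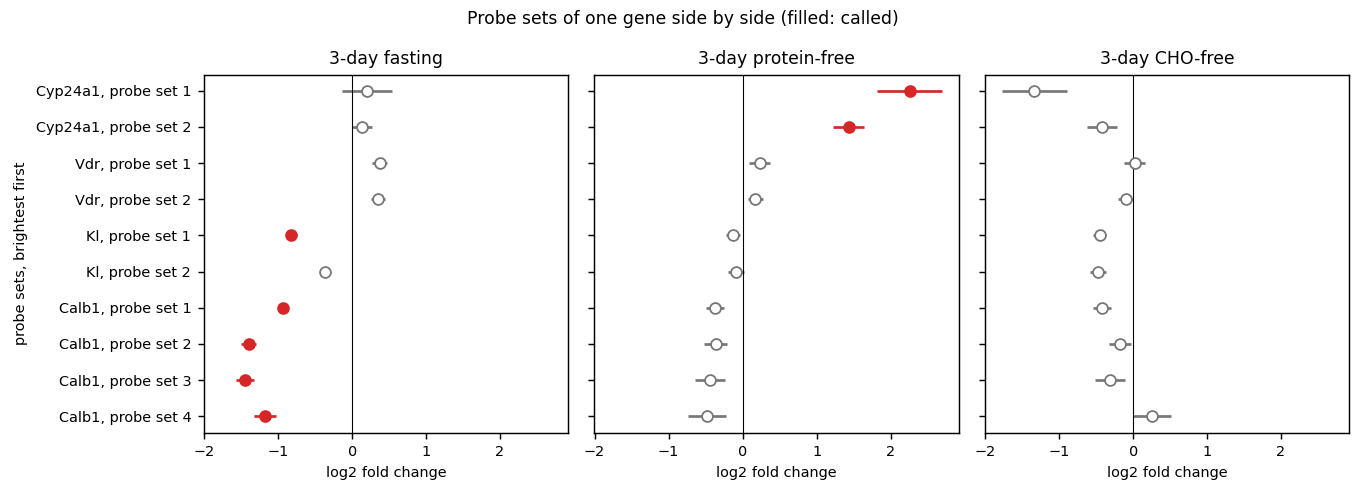
Log2 fold change of every probe set of Cyp24a1, Vdr, Kl and Calb1 after fasting and after the protein-free and CHO-free diets, with error bars of 1 standard error and filled points for calls; probe sets of a gene are ordered by signal. All 4 Calb1 probe sets were called lower after fasting, between -0.94 and -1.45, and both Cyp24a1 probe sets were called higher after the protein-free diet, at 2.26 and 1.43.

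Other genes of the calcium route moved beside Calb1 after fasting. Of 9 measured genes of transcellular calcium transport, 2 were called lower and 1 higher, where 2.68% and 2.63% of all probe sets were. Slc8a1, the basolateral sodium-calcium exchanger, was at 9.32 ± 0.08 (SD, n = 5) in SDS and 7.55 ± 0.35 (SD, n = 4) in fasted mice and so fell by 1.77 on the log2 scale (SE 0.13, adjusted p = 6.25e-06). Pvalb, a calcium buffer of the early distal convoluted tubule, fell by 1.01 (SE 0.11, adjusted p = 7.68e-05), and S100a10, whose product carries TRPV5 to the membrane, rose by 0.90 (SE 0.07, adjusted p = 1.19e-05). The median of the list was -0.21, against 0.00 over all probe sets. S100g (calbindin-D9k) at -0.44 (adjusted p = 0.00036) and the calcium pump gene Atp2b1 at -0.28 (adjusted p = 0.00631) passed the false discovery rate but not the fold change minimum, and these 2 were named once their values were known. The distal convoluted tubule and connecting tubule marker means were both lower in fasted mice, as given with Calb1. Pvalb is itself 1 of the 3 distal convoluted tubule markers, and the others, Slc12a3 and Trpm6, were not lower. The part of these cells in the results was not tested.

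After the CHO-free diet Slc8a1 fell by 1.05 (SE 0.16, adjusted p = 0.000152) and Pvalb by 0.73 (SE 0.17, adjusted p = 0.00637), where 2.25% of all probe sets were called lower. The other 7 genes of the list were not called, with a list median of 0.00. After 30%DR Pvalb alone was called, and fell by 0.83 (SE 0.19, adjusted p = 0.0256), where 0.919% of all probe sets were called. No gene of the list was called after the protein-free or the fat-free diet. The distal convoluted tubule marker mean was 8.78 ± 0.12 (SD, n = 5) in CHO-free and 8.77 ± 0.21 (SD, n = 5) in Control mice. It was 8.34 ± 0.28 (SD, n = 5) in 30%DR and 8.68 ± 0.04 (SD, n = 3) in their SDS mice. Pvalb was itself among the markers of this mean. The mean of 7 markers of connecting tubule and principal cells was 8.07 ± 0.09 (SD, n = 5) in CHO-free mice, above the 7.73 ± 0.18 (SD, n = 5) of Control, and its part in these results was not tested.

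Of 10 genes listed for the paracellular calcium route, which runs between tubule cells, 2 claudin genes were called lower after the CHO-free diet. There 2.25% of all probe sets were called lower. Cldn16 fell by 0.62 (SE 0.15, adjusted p = 0.00790) and Cldn10 by 1.13 (SE 0.28, adjusted p = 0.0102). The tight junction gene Ocln rose by 0.69 (SE 0.08, adjusted p = 0.000164) after fasting, where 2.63% of all probe sets were called higher. The median of this list after the CHO-free diet was -0.25. The mean of 5 thick ascending limb markers, Cldn16 among them, was 10.13 ± 0.22 (SD, n = 5) in CHO-free and 10.34 ± 0.07 (SD, n = 5) in Control mice, with Cldn16 alone called. In the fasting cohort this mean was 10.75 ± 0.04 (SD, n = 5) in the SDS mice, from 10.69 to 10.80, and 10.43 ± 0.05 (SD, n = 4) in the fasted mice, from 10.36 to 10.47, with no overlap and 1 of the 5 markers called lower (Ptger3). Its part in the fasting results on Ocln, Kl, Calb1 and Slc8a1 was not tested. Of 8 measured magnesium handling genes 1 was called, Slc41a1, a sodium-magnesium exchanger. It rose by 0.71 (SE 0.06, adjusted p = 1.36e-05) after fasting and by 0.72 (SE 0.12, adjusted p = 0.000332) after the CHO-free diet. In these comparisons 2.63% and 1.35% of all probe sets were called higher.

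**Figure D5:**
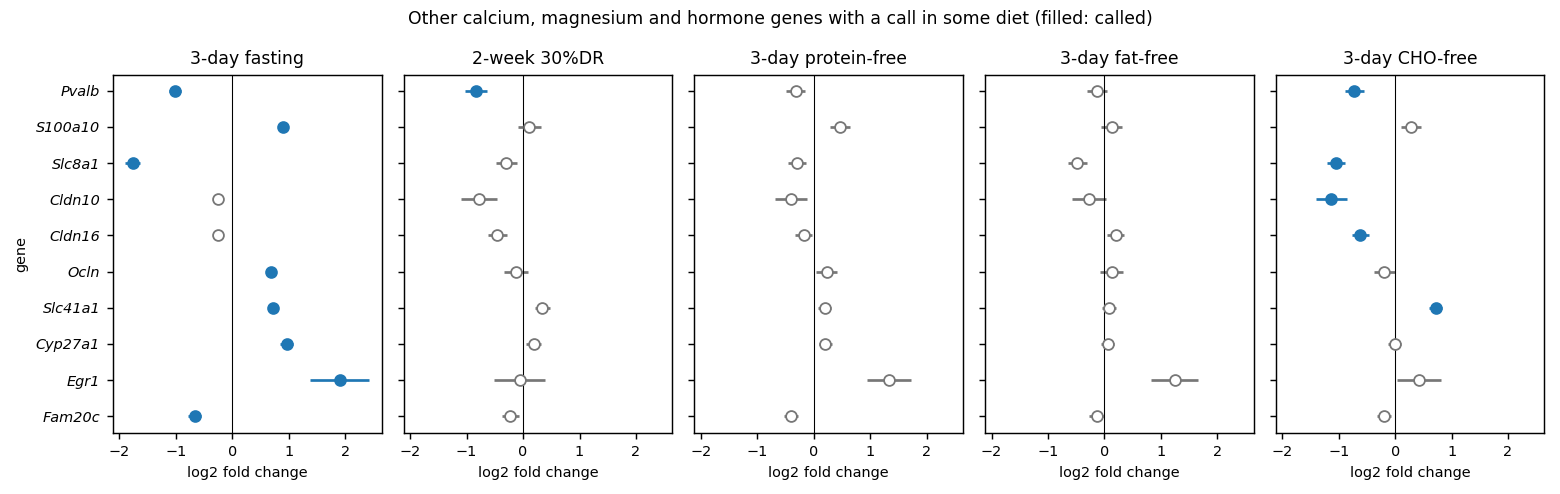
Log2 fold change of the 10 other calcium, magnesium, vitamin D and hormone genes that were called in at least 1 diet, with error bars of 1 standard error and filled points for calls. Slc8a1 and Pvalb were called lower after fasting (-1.77 and -1.01) and after the CHO-free diet (-1.05 and -0.73).

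Genes whose pattern over the 27 arrays of the other cohort was most like that of Slc34a3, Calb1 and Kl, the 3 genes with the lowest adjusted p after any diet, were ranked by Pearson's r, as a description of arrays that share diets and normalization. For Slc34a3 they were Rnf183 (r = 0.90), Agtr1a (0.88), Trim35 (0.87), Slc7a7 (0.87) and Npl (0.85). Within groups, after each group's mean was taken away, these r values were 0.42, 0.36, 0.44, 0.68 and 0.49. For Calb1 they were Gmcl1, Phospho2, Ostm1, Sec23a and Atp5mpl, each at 0.87 and between 0.76 and 0.84 within groups. For Kl they were Shtn1, Ccdc6, Ntn1, Hnrnpul2 and B4galt5, at 0.80 to 0.83 and between 0.41 and 0.64 within groups. Between Slc34a3 and Slc20a1 r was -0.70 over the same arrays and 0.22 within groups.

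Markers of other cell types were compared as lists in both cohorts. Of all probe sets 5.31% were called after fasting, 3.60% after the CHO-free and 0.738% after the protein-free diet. Of 7 leukocyte markers 4 were called lower after fasting (Ptprc, C1qa, C1qb and Cd74) and 2 after the CHO-free diet (C1qa and C1qb). Their mean was 5.97 to 6.35 in the SDS and 5.45 to 5.72 in the fasted mice. Both red blood cell markers were called lower after fasting. Of 6 intercalated cell markers 2 were called higher after the CHO-free diet (Slc4a1 and Aqp6) and 1 lower after the protein-free diet (Foxi1). Of 4 podocyte markers 1 was called higher after fasting (Wt1). No marker of endothelium (5), adipocytes (4) or adrenal cortex (4) was called in a diet, and the adrenal cortex mean stayed between 2.94 and 3.37 in every mouse. The part of these cells in the results above was not tested.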

How the data were processed

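RNA of kidneys snap frozen after the diets was hybridized to Affymetrix HT MG-430 PM arrays, 1 per mouse. The authors deposited RMA values on the log2 scale, computed apart for 2 cohorts hybridized on different dates. No RMA version is named in the sources used here. The authors left some arrays out as outliers beforehand, and the 30%DR controls here number 3 where the labels give 4. The number of arrays limits the precision.

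The values were used as deposited in limma 3.58.1 (R 4.3.3), with separate fits of the fasting cohort (9 arrays) and of the other cohort (27 arrays), whose groups share an estimate of the spread. Adjusted p values are Benjamini-Hochberg over 45141 probe sets. Contrasts between diets came from a fit of all 36 arrays with 8 group means. Symbols came from the array annotation, in which 28898 probe sets have 1 symbol (17097 genes), 551 several and 15692 none. The scripts were tested on simulated data, and figures were drawn with matplotlib 3.10.9 in Python 3.11.15.

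Genes named were the members, up to 4 called genes of each of 6 pathway lists per comparison, and the 5 genes most correlated with each of 3 members. Cell type markers that were called, and a few list genes given as examples or as uncalled values, were named outside this rule, after their values were seen. Members and lists were chosen with earlier results of these data known. Alternatives were other normalizations, filters, thresholds, priors, weights, covariates and groupings, the mean over a gene's probe sets, and each mouse left out.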

Additional observations from a re-analysis of the deposited data

Results flagged for a closer look

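In 4 of the 56 tests, each of 1 gene in 1 group, 1 mouse lay far from the others of its group. The gap to the nearest mouse was above the critical share of the group's range, which chance alone gives in about 5% of tests. Tests of different genes used the same mice. Control mouse TS30 was low for Slc20a2 at a log2 signal of 7.56 and for Kl at 10.56. SDS mouse K346 of the fasting cohort was high for Cyp27b1 at 4.69, and CHO-free mouse TS32 was low for Vdr at 9.43. No call on Slc20a2, Kl or Vdr changed when that mouse was left out, whereas Cyp27b1 was called after fasting without K346.

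Of 48 contrasts between the changes of 2 diets, 11 passed the test, each a difference of log2 fold changes. For Slc34a3 they were fasting minus 30%DR at -1.68, fasting minus protein-free at -1.46, 30%DR minus CHO-free at 1.53 and protein-free minus CHO-free at 1.31. For Slc20a1 they were 0.86 and 0.87 for fasting minus 30%DR and minus protein-free, and -0.72 for protein-free minus CHO-free. For Kl they were -0.59, -0.69 and 0.32 for the same 3 pairs, and for Cyp24a1 the protein-free minus CHO-free contrast was 3.60. On the brightest probe sets no contrast passed between fasting and the CHO-free diet (0 of 8), where 3.94% of all probe sets differed. None passed between 30%DR and the protein-free diet (0 of 8), where 0.0665% differed. Protein-free minus CHO-free gave 4 of the 11, where 9.83% of all probe sets differed. The share was 2.63% for fasting minus 30%DR, 3.00% for fasting minus protein-free and 1.2% for 30%DR minus CHO-free. In all contrasts with fasting, diet and cohort cannot be told apart.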

How the results depend on the processing

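Among 1095 single-gene values under the alternatives other than leaving out a mouse, 1045 kept their side of the threshold, 12 lost a call and 38 gained one. Direction was compared only for values with a call, and 0 of those reversed. The CHO-free diet called 4 genes (Slc34a3, Slc20a1, Kl and Calb1) in place of 2 with no fold change minimum, and 5 contrasts between diets in place of 11 passed with limma's treat at a fold change of 1.2. Leaving out each mouse in turn gave 4 to 5 genes after fasting, 0 to 0 after 30%DR, 1 to 1 after the protein-free, 0 to 0 after the fat-free and 2 to 3 after the CHO-free diet, 0 to 0 between Control and SDS, and 10 to 15 contrasts between diets. Cyp24a1 after the CHO-free diet was called with array medians subtracted (adjusted p = 0.0445), with probe sets above the median signal alone (0.0298), with the mean of its probe sets (-0.88, 0.0383), in 1 fit of all arrays (0.0345) and with the proximal tubule marker mean as a covariate (0.0257). Over its alternatives, mice left out apart, the adjusted p ranged from 0.0257 to 0.376. The causes were not tested. The Kl contrast of protein-free with CHO-free mice narrowly missed the threshold with the proximal tubule marker mean as a covariate (0.20, adjusted p = 0.0568). Calb1 passed the test for fasting against 30%DR (adjusted p down to 0.0178) without TS78, TS51, TS52, TS41, TS32, TS34 or TS36, against the protein-free diet (down to 0.0189) without TS78, TS29, TS51, TS41, TS32, TS34 or TS36, and against the CHO-free diet (0.00963) without TS34. Cyp24a1 did for fasting against protein-free (down to 0.0415) without TS34 or TS35, and Slc20a1 for 30%DR against CHO-free (0.0487) without TS55. No paired analysis was possible because the labels give animal IDs and no replicate number shared between groups.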
